A study of Rattus norvegicus with 6 samples.

Results

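Voltage-gated sodium channels and the hyperpolarization-activated HCN channels were described in the substantia nigra pars compacta of rats that received rotenone or its solvent. The members were all array probes whose accession is a rat RefSeq transcript of Scn1a, Scn2b, Scn3a, Scn8a, Hcn2, Hcn3 or Hcn4. Of the 7 genes, 6 had such a probe, out of 4013 genes that could be named on the array, and no probe was named for Hcn2. The 6 genes had 8 of the 33849 probes. The genes were chosen by name and not by a cutoff on a measured value, but with earlier results of these data known.

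Sodium channels carry the inward current of the action potential. Their large alpha subunits (Scn1a, Scn3a and Scn8a) each form a pore with its voltage sensors, and the small beta subunits, such as that of Scn2b, span the membrane and alter gating and placement. HCN channels are cation channels that open when the membrane becomes more negative and are gated further by cyclic AMP. The current through them is a hallmark by which dopamine neurons of the nigra are recognised in recordings, and both channel families take part in the regular, self-driven firing of these neurons.

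The study held 6 adult male Sprague Dawley rats, 5 months old. Minipumps under the skin released rotenone, a pesticide that blocks complex I of the respiratory chain, into 3 rats for 28 days at 0.5 mg/kg each day, and solvent alone for the same time into the other 3. The solvent, a mixture of dimethylsulfoxide and polyethylene glycol with the dispersing agent Pluronic F-127, and the anaesthesia with ketamine and xylazine for the implantation were shared by both groups. The region was taken by laser capture, and each rat gave 1 RNA sample and 1 one-colour array, so n is the number of rats. The comparison asks how a lasting low dose relates to gene expression in this region.

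Levels below are log2 intensities after background correction and quantile normalization, on which a probe without signal lies near 6. A probe was above background on an array where the scanner did not mark the spot as near background or masked. Probe levels were not set against each other, since probes differ in binding. In a piece of tissue, fewer cells of a type and less RNA per cell cannot be told apart. The array of rotenone rat 16 stood apart from the others. Its mean correlation with the other arrays was 0.931, against 0.956 to 0.964, and 44.2% of its probes were above background, against 48.6% to 51.5%. Tyrosine hydroxylase (Th) and the dopamine transporter Slc6a3, which define dopamine neurons, were above background in all 6 rats, at 12.48 to 13.09 and at 12.45 to 12.82. Of 11 dopamine neuron markers, 10 could be tested.

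Scn1a, the alpha subunit known from fast-firing interneurons and from inherited epilepsy, was above background in all 6 rats. Probe GE19675 (NM_030875.1) was at 7.56, 7.67 and 6.94 in solvent rats 11, 7 and 1, and at 6.37, 7.64 and 7.49 in rotenone rats 16, 13 and 9. Rotenone rat 16 was the lowest and solvent rat 1 the next, and the other 4 rats lay close together whatever their group. In net intensity, the spot minus its local background, rotenone rat 16 had 19.1, where the other 5 rats had 74.8 to 162.0. The group means were 7.39 ± 0.39 with solvent and 7.17 ± 0.69 with rotenone (SD, n = 3 each). The difference, rotenone minus solvent, was -0.22 with a 95% interval from -0.95 to 0.50 and an adjusted p of 0.930 from limma's moderated fit. Without rotenone rat 16 the difference was 0.18. The part of that array's general departure in the low Scn1a value was not tested.

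Scn3a, an alpha subunit most abundant before birth and known to return in injured sensory neurons, differed most widely between rats of one group. Probe GE1129870 (NM_013119.1) was at 7.14, 7.94 and 8.62 in solvent rats 11, 7 and 1, and at 8.56, 8.04 and 8.15 in rotenone rats 16, 13 and 9. The solvent rats held both the lowest and the highest value of all 6 rats, and the rotenone rats lay within the range of the solvent rats. The net intensities of the solvent rats were 88.2, 206.1 and 372.2, and those of the rotenone rats were 270.5, 214.0 and 221.1. The spot of solvent rat 7 was masked by the scanner. The means were 7.90 ± 0.74 with solvent and 8.25 ± 0.28 with rotenone (SD, n = 3 each). Their difference was 0.35, with an interval from -0.37 to 1.07 and an adjusted p of 0.903 in limma. It was -0.03 without solvent rat 11, 0.71 without solvent rat 1 (unadjusted p 0.0272, adjusted p 0.826 in limma), and 0.37 with the masked spot left out. A 2.10-fold increase on the offset scale, the upper end of the interval, was thus not excluded by these 6 rats. Nor was a decrease to 0.774 of the solvent level on that scale.

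Scn8a, the alpha subunit concentrated at the axon initial segment and nodes of Ranvier, was among the steadier probes. Probe GE1239585 (NM_019266.1) was at 6.71, 6.80 and 6.77 in solvent rats 11, 7 and 1, and at 6.94, 6.61 and 6.75 in rotenone rats 16, 13 and 9. Each rat was above background, and the rotenone values lay on both sides of the solvent values. The difference was 0.00785 with an interval from -0.35 to 0.37 (adjusted p 0.996 in limma). On the offset scale this interval corresponds to 0.784 to 1.29 of the solvent level. A second probe of the same transcript, GE21738, was near background in all 6 rats, none above 6.002, and therefore gave no measure of a difference.

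Scn2b, a beta subunit with an immunoglobulin-like outer domain, lay close to background on both of its probes. Probe GE21964 (NM_012877.1) was at 6.56, 5.97 and 6.17 in solvent rats 11, 7 and 1, above background in rat 11 alone. It was at 5.91, 6.52 and 6.38 in rotenone rats 16, 13 and 9, above background in rats 13 and 9. Solvent rat 11 and rotenone rat 13 were the highest and solvent rat 7 and rotenone rat 16 the lowest, so that the groups overlapped throughout. The difference was 0.04, with an interval from -0.44 to 0.52 and an adjusted p of 0.985 in limma. The second probe, GE20028, was above background in the same solvent rat 11 (6.30) and rotenone rat 13 (6.42) and between 5.90 and 6.12 in the other 4 rats, too few to be tested. Both probes thus ranked the same 2 rats highest.

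Hcn4, a slow HCN channel also known as the pacemaker channel of the sinoatrial node, was above background in all 6 rats. Probe GE13511 (NM_021658.1) was at 7.18, 7.16 and 7.13 in solvent rats 11, 7 and 1, and at 7.41, 7.12 and 6.98 in rotenone rats 16, 13 and 9. The solvent rats lay within 0.06 of each other, and the rotenone rats lay above, beside and below them. The difference was 0.01 with an interval from -0.36 to 0.39 (adjusted p 0.992 in limma). On the offset scale this interval corresponds to 0.779 to 1.31 of the solvent level. In net intensity, before normalization, Hcn4 was 93.9 ± 1.77 with solvent and 81.3 ± 10.2 with rotenone (SD, n = 3 each), and Scn8a was 57.6 ± 5.66 and 48.3 ± 3.51. On that scale the groups did not overlap for either probe, and they did not overlap for 11.9% of all probes tested. The median net intensity over all probes of an array was 11.7 to 14.8 with rotenone and 14.6 to 16.6 with solvent. With array medians equalised in place of quantile normalization the difference was -0.09, and the median of all probes tested was then -0.06.

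Hcn3, an HCN channel with little response to cyclic AMP, lay near background. Probe GE21501 (NM_053685.1) was at 6.25, 6.09 and 6.19 in solvent rats 11, 7 and 1, and at 6.0, 6.0 and 6.18 in rotenone rats 16, 13 and 9. It was above background in solvent rats 11 and 1 and in none of the rotenone rats, which is fewer arrays than a test required. The group means were 6.18 with solvent and 6.06 with rotenone, and rotenone rat 9 lay within the solvent range. No fold is given, since solvent rat 7 was near background as well.

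**Figure D1:**
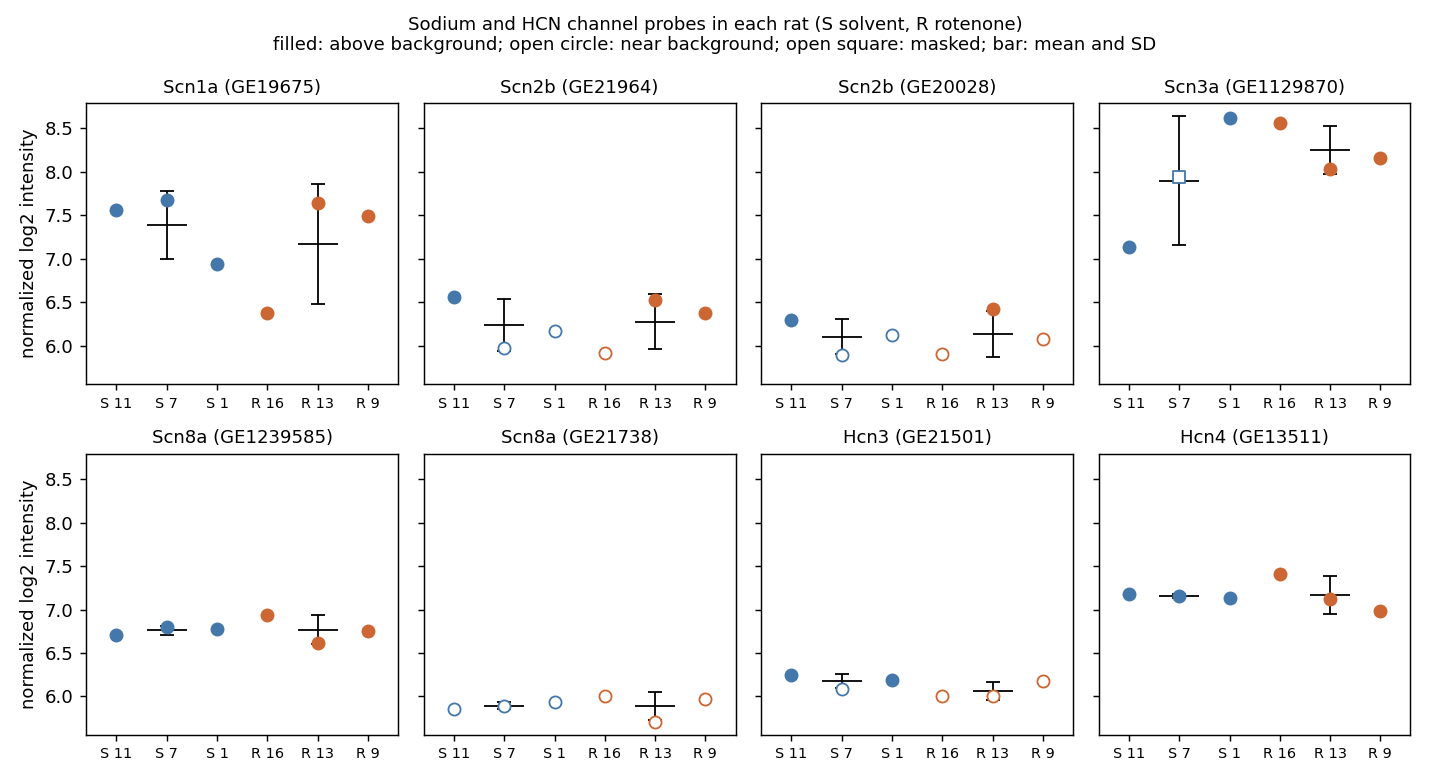
Normalized log2 intensity (vertical axis) of each of the 8 probes in each rat (S, solvent; R, rotenone), with filled points above background, open circles near background, an open square for the masked spot, and bars for the group mean and SD. Scn3a spans 7.14 to 8.62 within the solvent rats, Scn1a is lowest in rotenone rat 16 at 6.37, and Scn8a (GE1239585) and Hcn4 differ little between rats.

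Of the 5 member probes that could be tested, 0 passed an adjusted p of 0.05 in limma, and 0 had an unadjusted p below 0.05. Over all 16708 probes tested these shares were 0% and 4.94%. The 3 rotenone values overlapped the 3 solvent values at each of the 8 member probes, where the groups did not overlap at 9.97% of all probes tested. Of the 5 tested genes, 4 had a higher mean with rotenone and 1 a lower mean, beside 8629 and 8079 of all probes tested. Scn8a, Hcn4 and Scn2b were higher by only 0.00785, 0.01 and 0.04. The median difference of the 5 genes was 0.01, beside 0.00892 over all probes tested. Without rotenone rat 16 the median of the 5 genes was 0.18, which is the value of Scn1a, beside 0.00196 over all probes tested. The 5 differences then ran from -0.10 for Hcn4 to 0.22 for Scn2b. An exact permutation test of 3 rats against 3 cannot go below 0.1, so p values of limma's fit across all probes were used.

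The members differed from each other in their spread between rats. The highest and lowest rat were 1.48 apart for Scn3a and 1.30 apart for Scn1a on the log2 scale. Among the tested probes within 0.5 of their mean level, 4.82% (of 3192) spanned more than Scn3a and 7.09% (of 4863) more than Scn1a. Within the solvent rats alone, 0.501% of these probes spanned more than Scn3a and 15.2% more than Scn1a. For the other tested members these solvent shares were 14.8% (Scn2b), 93.5% (Scn8a) and 98.0% (Hcn4). In contrast, 88.9% of 7131 such probes spanned more than Scn8a (0.33), and 82.6% of 5189 spanned more than Hcn4 (0.42). Scn2b, near background, spanned 0.64, which 33.8% of such probes exceeded. The same 2 rats lay at an end of both wide spans, in opposite directions: solvent rat 1 and rotenone rat 16 had the 2 highest values of Scn3a and the 2 lowest of Scn1a. On chromosome 3 of the GRCr8 assembly these 2 genes lie in one run of sodium channel genes, in the order Scn3a, Scn2a, Scn1a, Scn9a and Scn7a, with other genes between Scn2a and Scn1a.

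**Figure D2:**
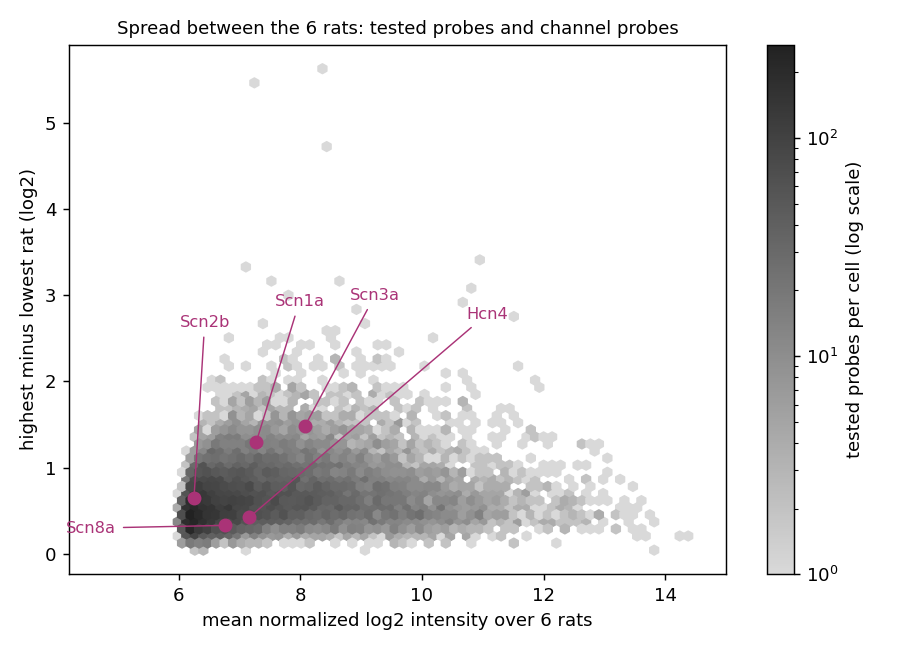
Span between the highest and the lowest of the 6 rats (vertical axis, log2) against mean level (horizontal axis, normalized log2 intensity) for the 16708 tested probes in grey, darker where more probes fall, and the 5 tested member probes in colour. Scn3a (1.48) and Scn1a (1.30) lie in the upper part of the cloud at their level, and Scn8a (0.33) and Hcn4 (0.42) in the lower part.

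The named genes whose values followed the members most closely over the 6 arrays were sought among 1860 probes of other genes that were above background in all 6 rats. For Scn1a these were Serp1, of the endoplasmic reticulum (Pearson r = 0.996, Spearman rho = 0.943), and the neurofilament light chain gene Nefl (r = 0.988, rho = 1), and 126 probes had an r over 0.9. Without rotenone rat 16 the r values were 0.985 and 0.958. For Scn8a they were the transporter gene Abcc5 (r = 0.995, rho = 1) and the ATP receptor subunit gene P2rx6 (r = 0.955, rho = 1), with 25 probes over 0.9. For Hcn4 they were Cyp27b1, which activates vitamin D (r = 0.977, rho = 0.657), and the tumour necrosis factor receptor gene Tnfrsf1a (r = 0.976, rho = 0.943), with 36 probes over 0.9. These values describe 6 arrays that share their normalization, were picked as the highest of many, and carry no test.

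Genes that work with these channels were taken from lists of 53 partners, of which 28 had a named probe and 20 could be tested, with the probe of highest mean for each gene. None passed the adjusted test in limma (smallest adjusted p 0.895). At an unadjusted p below 0.05, 3 (Pex5l, Rack1 and Mapk14) had lower and 0 higher values with rotenone, which is 15% against 4.94% of all probes. The groups did not overlap for 4 of the 20 (Scn4a, Pex5l, Cntn1 and Mapk14), against 9.97% of all probes; Scn4a and Cntn1 are named after their values were seen. In mean, 9 were higher and 11 lower, with a median difference of -0.09, and of -0.05 without rotenone rat 16.

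Of the other sodium channel subunits, 6 of 9 listed genes were tested, 4 with a higher and 2 with a lower mean, at a median of 0.10, and of 0.00095 without rotenone rat 16. Scn2a, the alpha subunit abundant in adult forebrain axons, was at 7.79, 8.30 and 8.24 in solvent rats 11, 7 and 1 and at 7.40, 7.96 and 7.68 in rotenone rats 16, 13 and 9. Its groups overlapped through solvent rat 11, and its difference was -0.43 ± 0.21 (SE; unadjusted p 0.0625, adjusted p 0.895 in limma). Scn3b, a beta subunit gene, had bright probes that disagreed. Probe GE21533 was at 9.79, 9.30 and 9.82 in solvent rats 11, 7 and 1 and at 10.69, 9.66 and 9.64 in rotenone rats 16, 13 and 9. It differed by 0.36 ± 0.28 (SE; unadjusted p 0.234, adjusted p 0.897 in limma), and by 0.01 without rotenone rat 16, its highest rat. Probe GE1274997 differed by -0.40, and rotenone rat 16 was the next to lowest there, at 9.03.

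Of 6 listed partners of HCN channels 2 were tested, and both had a lower mean with rotenone. Pex5l, whose product TRIP8b is an accessory subunit that steers HCN channels to dendrites, was at 7.07, 7.21 and 7.29 in solvent rats 11, 7 and 1. It was at 6.15, 6.80 and 7.06 in rotenone rats 16, 13 and 9, and near background in rat 16. Its difference was -0.52 ± 0.23 (SE; unadjusted p 0.0471, adjusted p 0.895 in limma) and -0.26 without rotenone rat 16. The scaffold protein gene Rack1 differed by -0.74 ± 0.33 (SE; unadjusted p 0.0493, adjusted p 0.895 in limma) and by -0.40 without that rat. It was lowest in rotenone rat 16, at 6.50.

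The 5 tested genes of the axon initial segment and nodes, of 17 listed, had a median difference of -0.04, with 2 higher and 3 lower in mean. The adhesion molecule genes Cntn2 and L1cam differed by -0.25 and 0.33, with unadjusted p values of 0.172 and 0.192 in limma. L1cam was at 0.15 without rotenone rat 16 and at 0.14 to 0.51 with 1 rat left out, and Cntn2 at -0.34 to -0.16. Both probes of Cntn2 were lower in mean, the second by -0.31. Of the 16 listed modulators of sodium channels 7 were tested, at a median of -0.27, and of -0.06 without rotenone rat 16. The kinase gene Mapk14 differed by -0.56 ± 0.20 (SE; unadjusted p 0.0187, adjusted p 0.895 in limma) at probe GE1172706 and by 0.18 at its dimmer probe GE21022. Csnk2b, a subunit of casein kinase 2, differed by -0.66 ± 0.31 (SE; unadjusted p 0.0604 in limma), and by -0.25 without rotenone rat 16. None of the 5 listed genes of the sodium leak channel complex was named on the array.

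**Figure D3:**
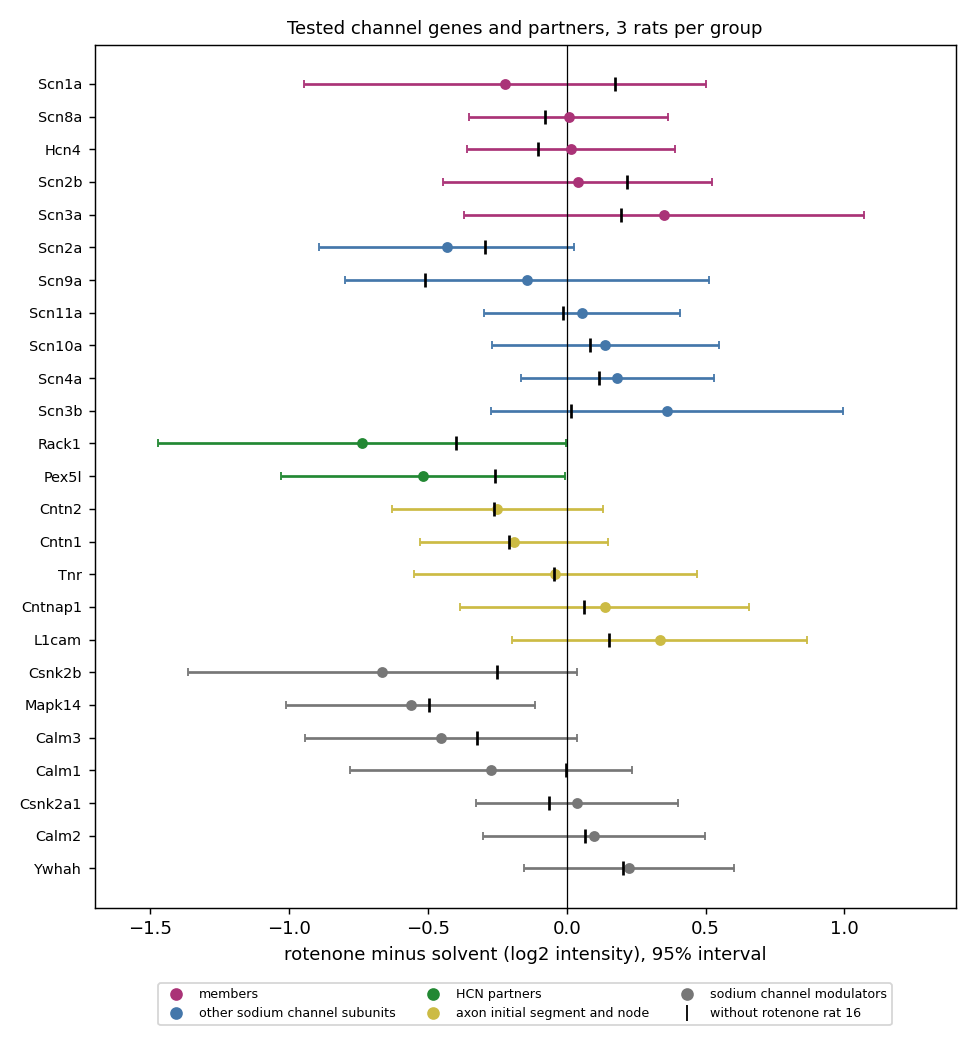
Difference between rotenone and solvent (horizontal axis, log2 intensity) with its 95% interval from limma for the 5 tested member genes and 20 tested partner genes, 1 probe each and 3 rats per group, with a black bar for the difference without rotenone rat 16. All 5 member intervals cross 0, and Scn1a moves from -0.22 to 0.18 when that rat is left out.

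Rotenone rat 16 was the highest or lowest of the 6 rats for 4 of the 5 tested members and for 13 of the 20 tested partners (65.0%), beside 55.5% of all probes tested. Of 15 listed markers of neurons in general, 8 were tested, and this rat had the lowest value for 7 of them. All 8 had a lower mean with rotenone, at a median of -0.28, and of -0.11 without this rat. Of the 8, 3 had an unadjusted p below 0.05 (against 4.94% of all probes), 2 had groups that did not overlap (against 9.97%), and 0 passed the adjusted test in limma. Of the 10 tested dopamine neuron markers, 6 were lower and 4 higher in mean. Their median difference was -0.18, and it stayed at -0.17 without rotenone rat 16. Among them, limma's unadjusted p fell under 0.05 for 2, both lower with rotenone, against 4.94% of all probes. For 2 of the 10 the rotenone and solvent values were separate, against 9.97% of all probes. For the 8 markers of neurons in general, the sum of log2 values was 61.8 in rotenone rat 16 and 66.6 and 67.0 in the other rotenone rats. It was 66.8 to 69.0 in the solvent rats. For the dopamine neuron markers the sums were 95.04 to 98.3 with rotenone and 97.5 to 99.7 with solvent. For 7 GABA neuron markers they were 55.0 to 56.9 and 55.5 to 56.2, for 6 astrocyte markers 57.8 to 60.9 and 58.8 to 59.6, and for 8 oligodendrocyte markers 71.2 (rat 16), 72.6 and 70.6 against 70.4 to 74.7. For 3 microglia markers the sums were 24.1 to 25.1 and 24.2 to 24.96. Th was higher by 0.12 and Slc6a3 lower by 0.20 in mean with rotenone (differences 0.12 and -0.20, adjusted p 0.934 and 0.897 in limma). The groups did not overlap for Slc6a3, against 9.97% of all probes, and overlapped for Th. Gad1, Gfap, Mbp and Aif1, of GABA neurons, astrocytes, myelin and microglia, differed by -0.03, -0.15, -0.38 and -0.06, each with an adjusted p over 0.05 in limma. Gfap lay on the other side of 0 from the median of its list: 4 of the 6 astrocyte markers were higher and 2 lower in mean, at a median of 0.13, and of 0.21 without rotenone rat 16. The part of the lower neuron markers in the Scn1a, Pex5l, Rack1 and Mapk14 values was not tested.

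**Figure D4:**
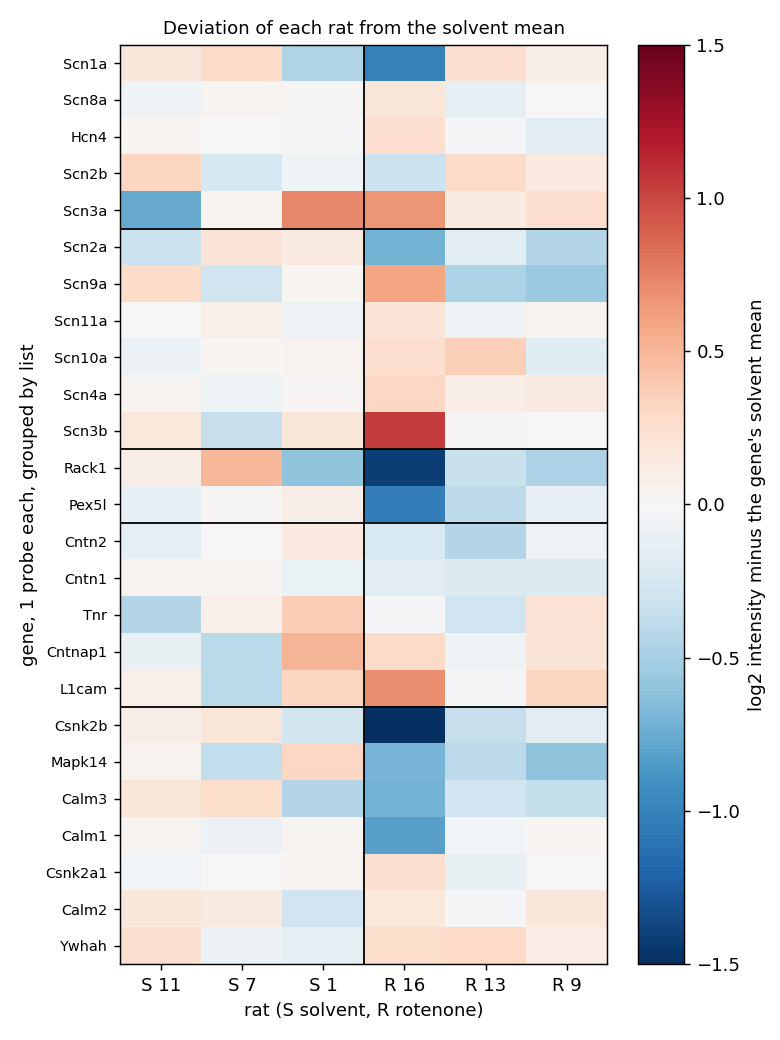
Deviation of each rat (columns; S, solvent; R, rotenone) from the solvent mean of the gene, as colour on the log2 scale, for the tested members and partners (rows, 1 probe each, lists divided by lines). The column of rotenone rat 16 holds the strongest colours, low for Scn1a, Pex5l, Rack1 and Csnk2b and high for Scn3b.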

How the data were processed

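The deposited scanner files give, as linear intensity, the mean of each spot, its local background median, their difference (net intensity) and that difference scaled by the authors to about the array median. The RNA was amplified by in vitro transcription and labelled with biotin, per the labels' protocols. The sources used here do not name the scanner software.

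Normexp background correction (offset 50), removal of control spots, log2 and quantile normalization were applied. The offset draws differences towards 0. Probes above background on at least 3 arrays (16708) were tested in a two-sided comparison by limma 3.58.1, run in R 4.3.3. The p values were adjusted over all of them by the Benjamini-Hochberg method. The fit and adjustment were checked on simulated independent values. That check left out background correction, normalization, the filter and any deviating array, so it does not cover those steps. Every spot was kept, since the irregular mark fell on 97.9% to 99.0% of probes with a net intensity over 100. Symbols came from RefSeq accessions (GRCr8), for 4675 probes. Neither probe sequences nor cross-binding between the related sodium channel genes were analysed here. The deposited value table of the same intensities had the column of solvent rat 7 beside the wrong probes (0.898% equal to the scanner file, against 100% in the other columns; column medians 0.994 to 1.00), and served as an alternative. Its scale is linear and it has no direction.

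The members, the partner and marker lists and the alternatives were chosen with earlier results of these data known. The named genes are all member probes, the 2 partners with the lowest p of each list, Th, Slc6a3, Gad1, Gfap, Mbp and Aif1, and the 2 genes most correlated with each member that was above background on all arrays. Scn4a, Cntn1, Scn10a and Scn11a are named outside this rule. Of the listed partners, 2 more are not reported here. The number of arrays limits the precision.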

Additional observations from a re-analysis of the deposited data

How the results depend on the processing

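No member or partner gene passed the adjusted test in limma under any alternative run, which is 0 genes each time. The count of all probes past it was 0, but 2 with contaminated, irregular and masked spots left out. With those spots left out no member probe could be tested, and only 2 member and partner genes were tested, against 25 in the report. The count was 0 to 3 with 1 rat left out (3 without solvent rat 1). The number of member and partner genes with an unadjusted p below 0.05 in limma was 3 of 25 in the report. It was 0 with the authors' scaled intensity, 1 without rotenone rat 16 and 5 with equal array medians. With 1 rat left out, the difference lay between -0.46 (without rotenone rat 13) and 0.18 for Scn1a, between -0.093 and 0.22 for Scn2b, between -0.029 and 0.71 for Scn3a, between -0.078 and 0.086 for Scn8a and between -0.10 and 0.11 for Hcn4, so that each sign depended on the rats. With equal array medians Scn8a was at -0.079, Hcn4 at -0.086 and the solvent level of Hcn4 at 7.20, and with cyclic loess Scn8a was at -0.0056. Scn8a was at -0.018 with the authors' scaled intensity and at -0.018 with the deposited value table in probe order, where Scn1a was at -0.52 and Scn3a at 0.54 in both (-0.22 and 0.35 in the report). Scn1a was at -0.49 with plain subtraction, and Scn3a at 0.50. With the deposited value table as it stands, whose column of solvent rat 7 is out of order, Scn2b was at -0.97, Hcn4 at -1.17, Scn1a at -0.015, Scn3a at 2.13 and Scn8a at 1.73. Solvent rat 7 alone carried another date in the file header, and with that date as a block Scn2b was at -0.093, and Scn1a at -0.080, as without this rat. With the column of solvent rat 7 in probe order, Scn2b was at 0.068 and Hcn4 at 0.019, as with the authors' scaled intensity. The cause of the changes under the other settings was not tested. No paired analysis was possible because the groups share no rat numbers.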

Other observations

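Sodium channel genes best known outside the brain also had signal. Scn10a and Scn11a are named here after their values were seen. Scn10a, known from sensory neurons, was above background in all 6 rats, at 8.64 ± 0.07 with solvent and 8.78 ± 0.29 with rotenone (SD, n = 3 each). Scn11a, of the same neurons, was above background in all 6 rats at probe GE20622 (6.48 and 6.53 in mean) and near background in all 6 at probe GE21529. The muscle channel Scn4a was above background in 5 rats, at 6.20 ± 0.06 with solvent and 6.38 ± 0.12 with rotenone (SD, n = 3 each). Its net intensities were only 15.9 to 25.25. The groups did not overlap, which held for 9.97% of all probes tested. Its difference was 0.18, with an interval from -0.16 to 0.53 and an adjusted p of 0.900 in limma. Whether these probes bind transcripts of related channels was not tested.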
